A study of Mus musculus with 69 samples.

Results

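The genes described here are the ligands and receptors of the classical axon guidance families: the semaphorins with their plexin and neuropilin receptors, the ephrins with the Eph receptors, the Slits with the Robo receptors, and the netrins Ntn1 and Ntn4 with Dcc and the Unc5 receptors. They were taken from the deposited count table by symbol, which gave 65 of its 17634 genes: 20 semaphorins, 11 plexins and neuropilins, 7 ephrins, 13 Eph receptors, 3 Slits, 4 Robo receptors, 2 netrins and 5 netrin receptors. Efna4 and Epha1 fit the same name patterns and were not among the genes analysed here. The study used RiboTag, in which Cre turns on a haemagglutinin-tagged copy of the ribosomal protein Rpl22, so that mRNA on the ribosomes of 1 cell class can be pulled down from cortical homogenate. All mice carried the Rpl22HA/HA alleles with either PV-Cre, which marks parvalbumin (Pvalb) interneurons, or Camk2a-Cre, which marks mostly excitatory neurons, and were wild type (WT) or Fmr1 knockout (KO), the mouse model of fragile X syndrome. Primary visual cortex (V1) and primary somatosensory cortex (S1) were taken from mice aged 70 to 100 days. The 8 groups held 10 PV WT V1, 10 PV WT S1, 10 PV KO V1, 10 PV KO S1, 8 Camk2a WT V1, 8 Camk2a WT S1, 6 Camk2a KO V1 and 7 Camk2a KO S1 libraries. These 69 libraries came from 37 mice, of which 32 gave both areas.

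Guidance molecules are best known for steering growing axons by attraction or repulsion, and many remain in the adult cortex, where they act on synapses, spines and the matrix around neurons. Secreted class 3 semaphorins bind neuropilins, which signal through A-type plexins, whereas Sema3e binds Plxnd1 directly, and the membrane-bound semaphorins bind plexins without a neuropilin. Ephrins and Eph receptors are both membrane-bound and signal at cell contacts in both directions. Slits are secreted ligands of Robo receptors, and netrins attract through Dcc and repel through the Unc5 receptors.

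The libraries held between 27.64 M and 49.11 M estimated counts (median 38.77 M). Levels are given as CPM, counts scaled to a common library total, as the mean ± SD over libraries. The targeted gene followed the genotype labels in every library: Fmr1 was between 38.62 and 91.28 CPM in WT and between 6.38 and 16.05 CPM in KO libraries. Camk2a was between 643 and 1438 CPM in PV libraries and between 5085 and 7323 CPM in Camk2a libraries, and Pvalb between 161 and 745 CPM in PV libraries and between 1.8 and 112 CPM in Camk2a libraries. The Camk2a libraries with the most PV markers came from animals C3, C18 and C19. The area labels were checked on 200 area-dependent genes outside the guidance families, and 7 libraries fell on the side of the other area. These were both libraries of PV WT animal P22, of PV KO animal P9 and of Camk2a WT animal C24, and the library labelled V1 of PV KO animal P24. Area results are therefore given with all libraries and without these animals. The library of C24 labelled S1 is also the only 1 that the labels put in a second batch. The sex label went against Y-linked genes in 6 libraries of 3 animals.

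Per kilobase of exon, which allows levels of different genes to be set side by side, Sema7a was the most abundant member in both classes, at 127.5 CPM per kb in WT PV libraries and 102.5 in WT Camk2a libraries (means over both areas). Sema7a is a membrane-anchored semaphorin that binds Plxnc1 and integrins. In PV libraries it was followed by Sema6b at 40.9, the kinase-inactive receptor Ephb6 at 30.02, the plexin Plxna4 at 19.19 and the netrin receptor Unc5a at 17.62 CPM per kb. In Camk2a libraries it was followed by Ephb6 at 50.51, Unc5a at 50.17, the ephrin receptor Epha4 at 47.48 and Sema6b at 42.94 CPM per kb. Exons of Unc5a overlap those of Hk3 on the other strand, and the same holds for Unc5c with Gm15688, Sema4c with D430040D24Rik and Ephb4 with Zan. The labels do not state that strand was kept, so reads inside these overlaps may come from either gene. The length of the overlaps was not measured, and the values of these 4 genes are uncertain to that extent.

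**Figure D1:**
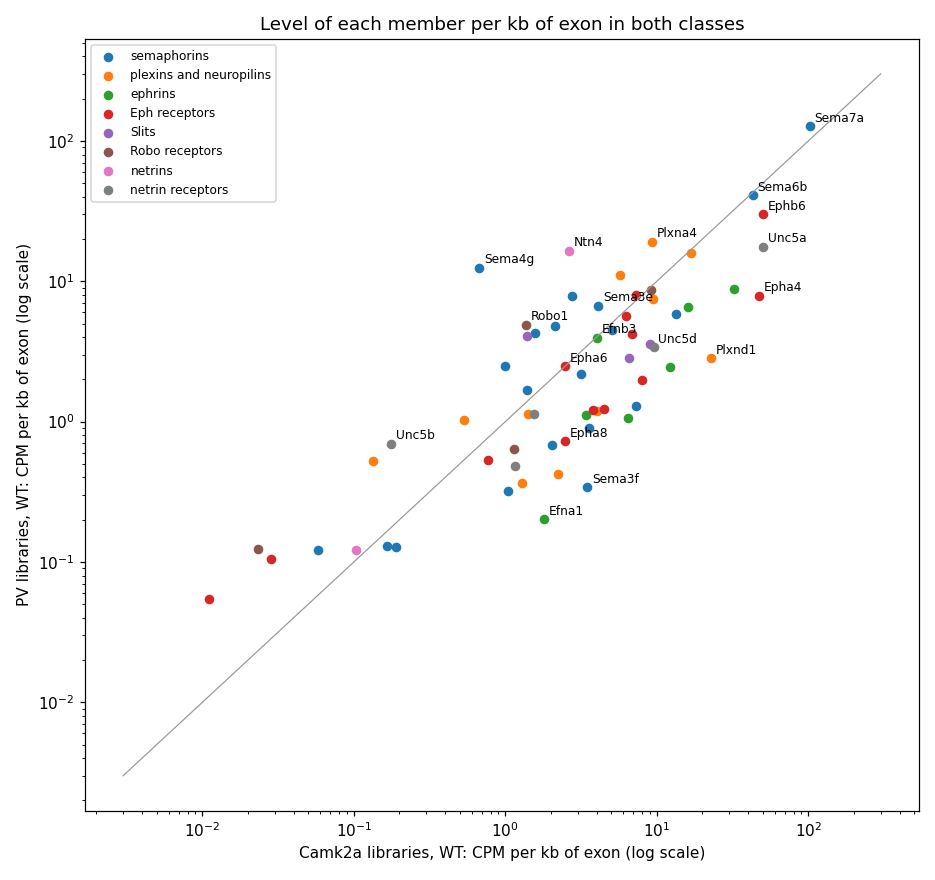
Level of each member in WT PV libraries (vertical) against WT Camk2a libraries (horizontal), in CPM per kb of exon on log axes, as means over both areas, with colours for the roles and a line at equal levels. Sema7a has the highest level in both classes (127.5 and 102.5), and Sema4g and Ntn4 lie above the line while Epha4, Plxnd1 and Sema3f lie below it.

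The stretch upstream of the RefSeq start site is shown for 6 members: those that separated the classes widely in each direction, and Sema3e, whose area difference depended on class. RefSeq promoters of GRCm38.p6 matched 55 of the 65 members by symbol, and the 250 bases before the start are printed 5′ to 3′ on the gene's own strand. The RefSeq start used here is the start of the GENCODE gene for Plxnd1, Epha4 and Sema3e, but lies inside it for the others, 243 bases downstream for Sema4g, 368 bases for Ntn4 and 355 kb for Robo1, so the Robo1 stretch precedes an internal start. Capitals mark matches on either strand to 5 short words, none of which contains another: the GC box GGGCGG, the E-box CAGATG, the homeodomain core TAATTA, the cAMP response element core TGACGT and the TATA box TATAAA.
Sema4g, higher in PV, chr19:44989094-44989343, plus strand: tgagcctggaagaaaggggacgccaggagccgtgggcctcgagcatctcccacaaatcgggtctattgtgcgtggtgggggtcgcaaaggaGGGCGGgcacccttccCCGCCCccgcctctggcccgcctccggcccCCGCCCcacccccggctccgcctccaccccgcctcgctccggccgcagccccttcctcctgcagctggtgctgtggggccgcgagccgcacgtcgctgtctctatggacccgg
Ntn4, higher in PV, chr10:93640799-93641048, plus strand: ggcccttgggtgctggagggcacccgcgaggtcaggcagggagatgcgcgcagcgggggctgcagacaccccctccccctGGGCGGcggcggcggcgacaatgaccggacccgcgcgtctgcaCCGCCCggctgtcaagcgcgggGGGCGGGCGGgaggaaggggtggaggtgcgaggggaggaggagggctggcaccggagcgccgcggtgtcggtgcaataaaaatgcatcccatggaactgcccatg
Robo1, higher in PV, chr16:72662899-72663148, plus strand: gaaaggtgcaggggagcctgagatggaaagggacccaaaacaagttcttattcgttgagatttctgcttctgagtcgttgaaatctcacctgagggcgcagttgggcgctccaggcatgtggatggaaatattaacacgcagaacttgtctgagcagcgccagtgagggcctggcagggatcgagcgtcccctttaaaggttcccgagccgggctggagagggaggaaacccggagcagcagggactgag
Plxnd1, lower in PV, chr6:115995006-115995255, minus strand: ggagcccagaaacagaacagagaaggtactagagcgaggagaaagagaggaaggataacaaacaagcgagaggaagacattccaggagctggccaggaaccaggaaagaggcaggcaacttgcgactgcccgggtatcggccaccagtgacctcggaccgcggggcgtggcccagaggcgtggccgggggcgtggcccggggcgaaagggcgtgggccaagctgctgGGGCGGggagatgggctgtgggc
Epha4, lower in PV, chr1:77515089-77515338, minus strand: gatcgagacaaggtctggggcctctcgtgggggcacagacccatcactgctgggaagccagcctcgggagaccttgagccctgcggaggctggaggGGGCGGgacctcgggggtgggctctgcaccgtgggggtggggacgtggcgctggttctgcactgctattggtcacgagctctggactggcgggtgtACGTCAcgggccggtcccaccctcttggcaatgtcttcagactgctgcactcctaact
Sema3e, area-dependent, chr5:14025026-14025275, plus strand: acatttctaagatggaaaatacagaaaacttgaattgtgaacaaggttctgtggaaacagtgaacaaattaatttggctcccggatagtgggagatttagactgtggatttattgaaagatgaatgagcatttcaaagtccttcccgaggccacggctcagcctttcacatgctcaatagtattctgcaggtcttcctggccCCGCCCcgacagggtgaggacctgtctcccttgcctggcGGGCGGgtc

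These stretches had a G and C share of 73.2% for Sema4g and Ntn4, 66% for Epha4, 64.8% for Plxnd1, 56% for Robo1 and 48% for Sema3e. Ntn4 held 4 GC boxes, Sema4g 3, Sema3e 2 and Plxnd1 and Epha4 1 each, while Robo1 held no match to any of the words. Epha4 also held 1 match to TGACGT. GC boxes were found in 9 of 11 promoters of members higher in PV in all 4 class comparisons and in 20 of 29 of members lower in PV in all 4, against 32.7% of all 32851 promoters of this length. Over all members with a promoter entry, whatever their class direction, they were found in 41 of 55. TGACGT was found in 0 of 11 and 2 of 29 (6.47% of all promoters), CAGATG in 0 of 11 and 2 of 29 (14.4%), TAATTA in 0 of 11 and 1 of 29 (4.84%), and TATAAA in 1 of 11 and 1 of 29 (12.4%). The median G and C share was 68.8% in the set higher in PV and 66% in the set lower in PV. It was 64.8% over all members with an entry and 52.4% over all promoters. These are counts of letters in 1 window and carry no statement on binding.

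The first comparison asked how the guidance genes on the ribosomes of PV interneurons differ from those of Camk2a neurons. Most ephrins, Eph receptors and netrin receptors were lower in PV, while Sema4g, Ntn4, Slit2, Robo1, Unc5b and Plxna4 were among the members that were higher. The contrast is broad: edgeR's quasi-likelihood test, with Benjamini-Hochberg adjustment over all genes tested and a threshold of 0.05, called 77.3% of all genes in WT V1 and 77.2% in WT S1. It called 54 of 64 tested members in WT V1 (17 higher and 37 lower in PV) and 54 of 62 in WT S1 (16 higher and 38 lower). Over all genes, 39.8% were higher and 37.5% lower in WT V1, and 39.1% higher and 38.1% lower in WT S1. The median log2 fold change of the tested members was -0.42 in WT V1 and -0.72 in WT S1, beside 0.03 and 0.02 over all genes. In the KO, where 74.3% of all genes were called in V1 and 77.7% in S1, 57 of 64 members (19 higher, 38 lower) and 59 of 64 (21 higher, 38 lower) were called, with medians of -0.56 and -0.51; over all genes 38.3% were higher and 35.9% lower in KO V1, and 39.8% higher and 37.9% lower in KO S1. Of 62 members tested in all 4 comparisons, 33 were lower in PV in all 4 and 13 were higher in all 4, where 30.5% and 30.7% of all 15803 genes tested in all 4 were. Epha2, near 0 in both classes, was tested in none. Summed CPM of all 65 members was 2871 ± 102 in PV WT V1 and 3589 ± 152 in Camk2a WT V1. The families did not all go the same way. Mean sums were higher in PV for semaphorins (971.5 against 847.1), Robo receptors (235.2 against 191.1), Slits (156.6 against 144.1) and netrins (58.97 against 10.21). They were lower in PV for Eph receptors (475.3 against 1002), ephrins (93.95 against 281), netrin receptors (143.8 against 341.3) and plexins with neuropilins (735.9 against 772.7). In bulk pull-downs, fewer cells of a type and less RNA per cell cannot be told apart.

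**Figure D2:**
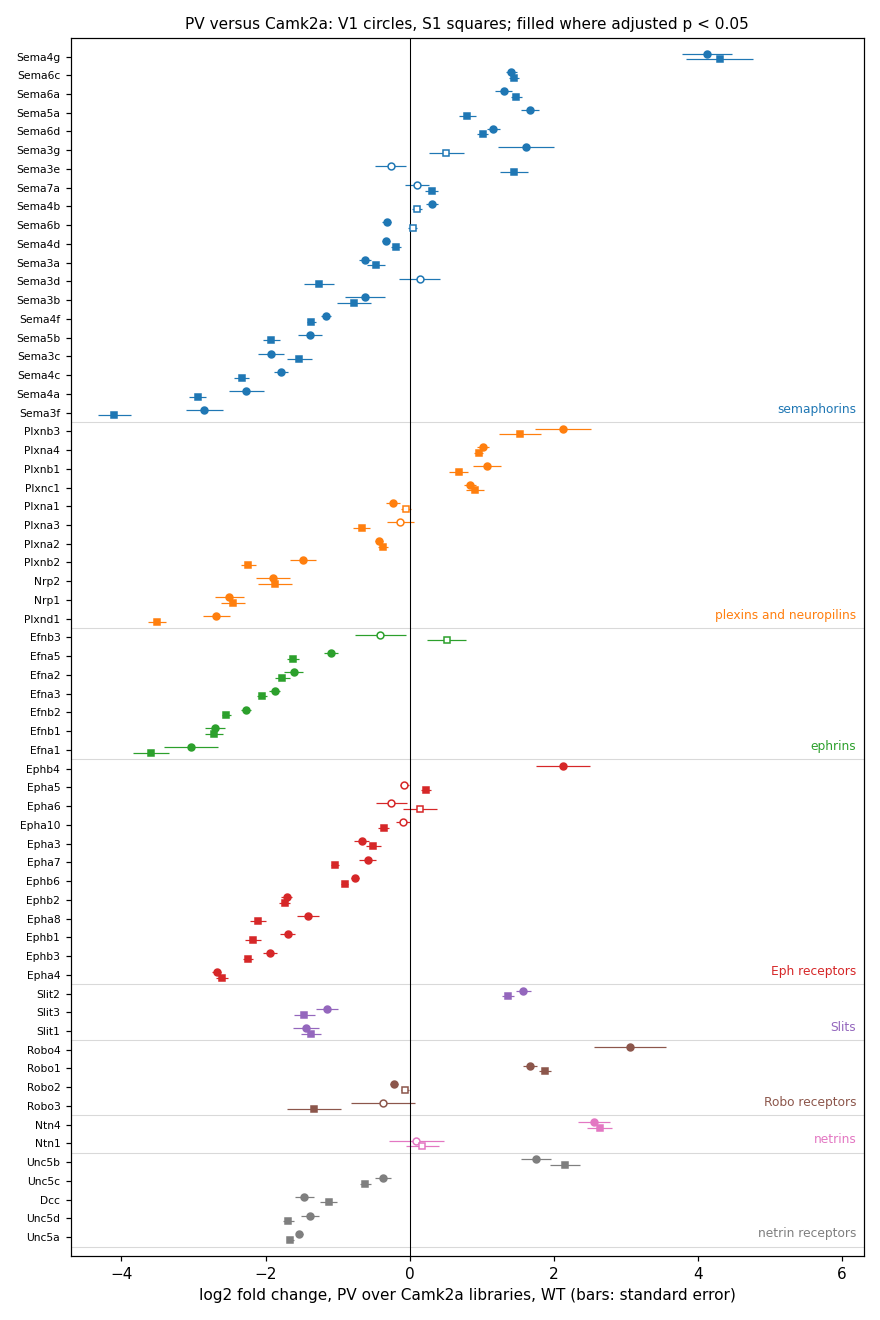
Log2 fold change (PV over Camk2a, WT) of each tested member with its standard error, grouped by role, in V1 (circles) and S1 (squares), filled where the adjusted p was under 0.05. Sema4g lies farthest to the right (4.13 and 4.30) and Sema3f in S1 farthest to the left (-4.10).

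Among the ligands, Sema4g, a transmembrane semaphorin, had the largest difference in favour of PV. It was at 107 ± 12.4 CPM in PV WT V1 (lowest 89.7, median 105, highest 125, n = 10) and at 5.86 ± 4.21 CPM in Camk2a WT V1 (lowest 1.72, median 4.35, highest 12.6, n = 8). In S1 it was at 109 ± 8.07 CPM in PV WT and 5.80 ± 6.13 in Camk2a WT. The classes did not overlap in either area, and the log2 fold change was 4.13 ± 0.35 (SE, adjusted p = 1.16e-08) in WT V1 and 4.30 ± 0.47 (adjusted p = 3.75e-07) in WT S1. Ntn4, a laminin-related netrin of basement membranes, was at 58.1 ± 5.43 CPM in PV WT V1 and 9.49 ± 4.70 in Camk2a WT V1, with no overlap (log2 fold change 2.56 ± 0.22, adjusted p = 9.55e-09). Slit2, a secreted repellent, was at 109.9 ± 13.1 and 35.2 ± 7.03 CPM in the same groups (1.57 ± 0.10), whereas the other Slits, Slit1 and Slit3, were lower in PV in all 4 comparisons. Slit1 was at 25.0 ± 4.92 CPM in PV WT V1 and 62.5 ± 20.8 in Camk2a WT V1. The transmembrane semaphorins Sema6c, Sema6a, Sema5a and Sema6d were higher in PV, with means over the WT log2 fold changes of V1 and S1 of 1.43, 1.39, 1.24 and 1.09.

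The largest differences the other way among the ligands were those of Sema3f and Efna1. Sema3f, the secreted ligand of Nrp2, was at 2.43 ± 1.64 CPM in PV WT V1 and 1.10 ± 0.539 in PV WT S1, against 17.2 ± 2.67 and 18.98 ± 2.26 CPM in Camk2a WT V1 and S1. The classes did not overlap, and the log2 fold changes were -2.85 ± 0.26 in V1 (adjusted p = 1.53e-08) and -4.10 ± 0.23 in S1 (adjusted p = 3.75e-12). Efna1, a lipid-anchored ephrin of low level, was at 0.535 ± 0.403 CPM in PV WT V1 and 4.19 ± 1.32 in Camk2a WT V1 (-3.04 ± 0.37). Of the 7 ephrins, 6 were lower in PV in all 4 comparisons (30.5% of all genes tested in all 4). The means of the WT log2 fold changes were -2.71 for Efnb1, -2.41 for Efnb2 and -1.96 for Efna3. The exception was Efnb3, which was called in neither WT comparison and in opposite directions in the KO, lower in PV in V1 (-0.73 ± 0.18, adjusted p = 0.00193) and higher in PV in S1 (1.06 ± 0.13, adjusted p = 2.91e-07). The transmembrane semaphorins Sema4a and Sema4c were lower in PV, at -2.61 and -2.06.

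Among the receptors, Epha4, which binds ephrins of both classes, was at 66.2 ± 7.44 CPM in PV WT V1 (lowest 48.2, median 68.7, highest 72.7) and 404 ± 27.7 in Camk2a WT V1 (lowest 365, median 406, highest 442). Every PV library was below every Camk2a library, and the log2 fold change was -2.68 ± 0.06 in V1 (adjusted p = 9.78e-18) and -2.60 ± 0.09 in S1. Plxnd1, the receptor of Sema3e, was at 25.7 ± 10.7 CPM in PV WT V1 and 161 ± 13.9 in Camk2a WT V1 (-2.68 ± 0.18), and at 15.5 ± 3.25 and 172 ± 20.9 CPM in S1 (-3.51 ± 0.12). Both neuropilins were lower in PV: the WT V1 log2 fold change was -2.50 ± 0.20 for Nrp1, the receptor of Sema3a, and -1.90 ± 0.24 for Nrp2. Of the 13 Eph receptors, 8 were lower in PV in all 4 comparisons, and Epha2 and Ephb4 were not tested in all 4. Over all genes tested in all 4, 30.5% were lower in all 4. Mean WT values were -2.09 for Ephb3 and -1.93 for Ephb1. Dcc, Unc5a, Unc5c and Unc5d were lower in PV in all 4 comparisons, Dcc with -1.46 ± 0.13 and Unc5a with -1.53 ± 0.05 in WT V1.

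Fewer receptors were higher in PV. Robo1 was at 85.0 ± 7.46 CPM in PV WT V1 and 25.1 ± 4.59 in Camk2a WT V1, without overlap (1.67 ± 0.10 in V1 and 1.88 ± 0.08 in S1). Robo2 was at 144 ± 10.3 and 159 ± 10.8 CPM in WT V1 (log2 fold change -0.21 ± 0.05, adjusted p = 0.00123) and was not called in WT S1 (adjusted p = 0.318). Unc5b, the remaining netrin receptor, was at 4.12 ± 0.787 CPM in PV WT V1 and 1.16 ± 0.495 in Camk2a WT V1 (1.75 ± 0.21). Plxna4, a receptor for Sema6a and a partner of neuropilins, was at 277 ± 25.7 and 130.0 ± 15.8 CPM (1.02 ± 0.08). Plxnb3 and Plxnb1, receptors of Sema5a and Sema4d, were also higher in PV in all 4 comparisons, with WT V1 values of 2.13 ± 0.39 and 1.08 ± 0.19, but their PV and Camk2a libraries overlapped.

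Markers of other cells moved with this contrast. In WT V1 the test called 16 of 17 oligodendrocyte markers, 9 of 10 oligodendrocyte precursor markers, 13 of 15 microglia markers and 11 of 15 tested vascular markers higher in PV, and 1 microglia and 1 vascular marker lower. Of 18 astrocyte markers 12 were higher and 4 lower, and of 15 markers of other interneurons 6 were higher and 5 lower. Over all genes 39.8% were higher and 37.5% lower. Summed CPM of oligodendrocyte markers was 442.7 to 1177 in PV WT V1 and 287.1 to 432.8 in Camk2a WT V1 libraries, that of microglia markers 37.8 to 71.26 and 19.6 to 23.94, and that of vascular markers 26.55 to 80.59 and 13.32 to 20.25. The sum of oligodendrocyte precursor markers was 214.5 to 304.8 and 142 to 259.5 CPM. Astrocyte markers summed to 1020 to 1558 CPM in PV WT V1 and 1333 to 1568 in Camk2a WT V1, and other interneuron markers to 258.9 to 323 and 1148 to 1496, so the latter sum was lower in every PV library. No listed marker of these types found in the table was at 0 throughout a WT group. Excitatory neuron markers summed to 1618 to 2809 CPM in PV WT V1 and 13840 to 16450 in Camk2a WT V1. PV interneuron markers summed to 11940 to 14260 and 304.2 to 1633 CPM. Libraries of each class thus held some mRNA of the other class's markers. The part of these cells, and of mRNA from the other class, in the levels and class differences of the members was not tested. Robo4 and Ephb4, known from blood vessels, were below a mean of 1 CPM in every group.

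Epha6 and Efnb3 were called in neither WT class comparison, with mean log2 fold changes of -0.05 and 0.05. Without animal C24 both were higher in PV in WT S1, with log2 values of 0.84 for Efnb3 (adjusted p = 3.70e-06) and 0.41 for Epha6 (adjusted p = 0.00234).

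The second comparison asked which guidance genes differ between Fmr1 KO and WT mice within a class. In PV, Unc5d was lower in the KO in both areas, and in Camk2a, Epha8 was lower in both areas. With the counts of both areas of an animal summed, edgeR's quasi-likelihood test called 4 of 65 members in PV (1 higher and 3 lower in the KO), where it called 1.36% of all genes (0.315% higher and 1.05% lower), and 2 of 64 in Camk2a (both lower), where it called 4.11% (2.05% higher and 2.05% lower). Within single areas it called 1 of 64 members in PV V1 (0.191% of all genes), 1 of 64 in PV S1 (0.77%), 1 of 61 in Camk2a V1 (1.4%) and 1 of 62 in Camk2a S1 (4.09%). The median log2 fold change of the members was -0.02 in PV and 0.02 in Camk2a with areas summed.

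Unc5d, a netrin receptor that also binds FLRT adhesion proteins, was at 33.3 ± 4.28 CPM in PV WT V1 (lowest 25.9, median 34.2, highest 39.4) and 25.8 ± 2.37 in PV KO V1 (lowest 20.6, median 26.4, highest 28.1). In S1 it was at 29.3 ± 3.18 CPM in PV WT (lowest 23.0, median 29.2, highest 33.9) and 23.5 ± 1.27 in PV KO (lowest 21.3, median 23.7, highest 25.2). All 10 KO libraries of each area were below the WT mean, while the ranges overlapped. The log2 fold change was -0.39 ± 0.07 in V1 (adjusted p = 0.00846) and -0.34 ± 0.06 in S1 (adjusted p = 0.00374). With areas summed, the 9 KO animals spanned 21.4 to 26.0 CPM and the 10 WT animals 27.2 to 35.5, without overlap (-0.37 ± 0.05, adjusted p = 3.31e-04). In Camk2a animals Unc5d was at 88.6 ± 14.6 CPM in WT and 95.8 ± 19.7 in KO (0.13 ± 0.14, adjusted p = 0.625). The PV effect minus the Camk2a effect was -0.49 ± 0.14, which did not pass (adjusted p = 0.0843). Unc5d lies at chr8:28646717-29219636 on the minus strand (mm10).

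Epha8, a receptor of the lipid-anchored ephrins, was at 10.1 ± 3.18 CPM in Camk2a WT V1 (lowest 6.02, median 9.16, highest 15.0) and 5.63 ± 1.75 in Camk2a KO V1 (lowest 3.73, median 5.22, highest 8.62). In S1 it was at 13.2 ± 1.71 CPM in Camk2a WT (lowest 10.5, median 13.6, highest 16.02) and 7.80 ± 1.61 in Camk2a KO (lowest 5.79, median 7.52, highest 10.3). The genotypes overlapped in V1 and did not overlap in S1. The log2 fold change was -0.82 ± 0.16 in V1 (adjusted p = 0.0303) and -0.74 ± 0.11 in S1 (adjusted p = 0.00284). With areas summed, the 6 KO animals spanned 4.76 to 9.46 CPM and the 7 WT animals 9.63 to 13.6 (-0.81 ± 0.11, adjusted p = 0.00291). The V1 call was lost without animals C3, C18 and C19 (-0.76, adjusted p = 0.147) and without the sex term (adjusted p = 0.0506). In PV animals Epha8 was at 3.40 ± 0.753 CPM in WT and 2.76 ± 0.676 in KO (-0.30 ± 0.10, adjusted p = 0.186), and the PV effect minus the Camk2a effect was 0.51 ± 0.15 (adjusted p = 0.124). Epha8 lies at chr4:136929419-136956816 on the minus strand.

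Smaller differences were called with areas summed and in neither area alone. Sema3a, a repellent found in the perineuronal nets around PV interneurons, was at 35.6 ± 2.23 CPM in KO and 30.4 ± 3.04 in WT PV animals (0.22 ± 0.05, adjusted p = 0.0284), and the call was lost without the sex term (adjusted p = 0.0605). Sema3e was at 52.6 ± 6.12 CPM in KO and 62.1 ± 4.56 in WT PV animals (-0.26 ± 0.07, adjusted p = 0.0487), and Sema5a at 40.2 ± 2.45 and 46.8 ± 4.84 CPM (-0.24 ± 0.06, adjusted p = 0.0476). For each of these 3 genes all 9 KO animals lay on the same side of the WT mean, and the ranges overlapped. The Sema5a call was lost with RLE size factors (adjusted p = 0.0515), where that of Sema3e was at 0.0497. The Sema3e and Sema5a calls were lost without P9, P22 and P24 (adjusted p = 0.088 and 0.107), with a glial marker score in the model (0.0619 and 0.0539) and in limma-voom with the animal as replicate block (0.55 and 0.193). Efna3 was at 66.2 ± 7.51 CPM in KO and 78.2 ± 4.21 in WT Camk2a animals (-0.24 ± 0.06, adjusted p = 0.0354). Its call was lost without C3, C18 and C19 (adjusted p = 0.136) and with the glial score (0.0514). In the same comparison of Camk2a animals the test called 0 of 14 PV interneuron markers, of which 1 was higher in the KO (median log2 fold change -1.08), and their summed CPM was 304.2 to 1633 in Camk2a WT V1 and 271 to 846 in Camk2a KO V1 libraries. Of 17 oligodendrocyte markers 1 was called lower and 3 were higher in the KO (median -0.17), with sums of 287.1 to 432.8 and 225.5 to 352.2 CPM in these groups. Without C3, C18 and C19, the animals richest in PV markers, the Epha8 difference with areas summed was -0.73 (adjusted p = 0.0391), and with the glial score it was -0.74 (adjusted p = 0.00186). In Camk2a 2 of 18 astrocyte markers and 1 of 16 vascular markers were also called lower in the KO (2.05% of all genes). In PV animals 14 of 17 vascular markers had a positive log2 fold change, 1 of them called (median 0.07), and so had 10 of 15 microglia markers (median 0.15). Among the other lists, 1 excitatory neuron, 1 oligodendrocyte and 1 other interneuron marker were called lower in the PV KO (1.05% of all genes). Apart from the fits with the glial score, the part of these cells in the PV genotype differences was not tested.

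**Figure D3:**
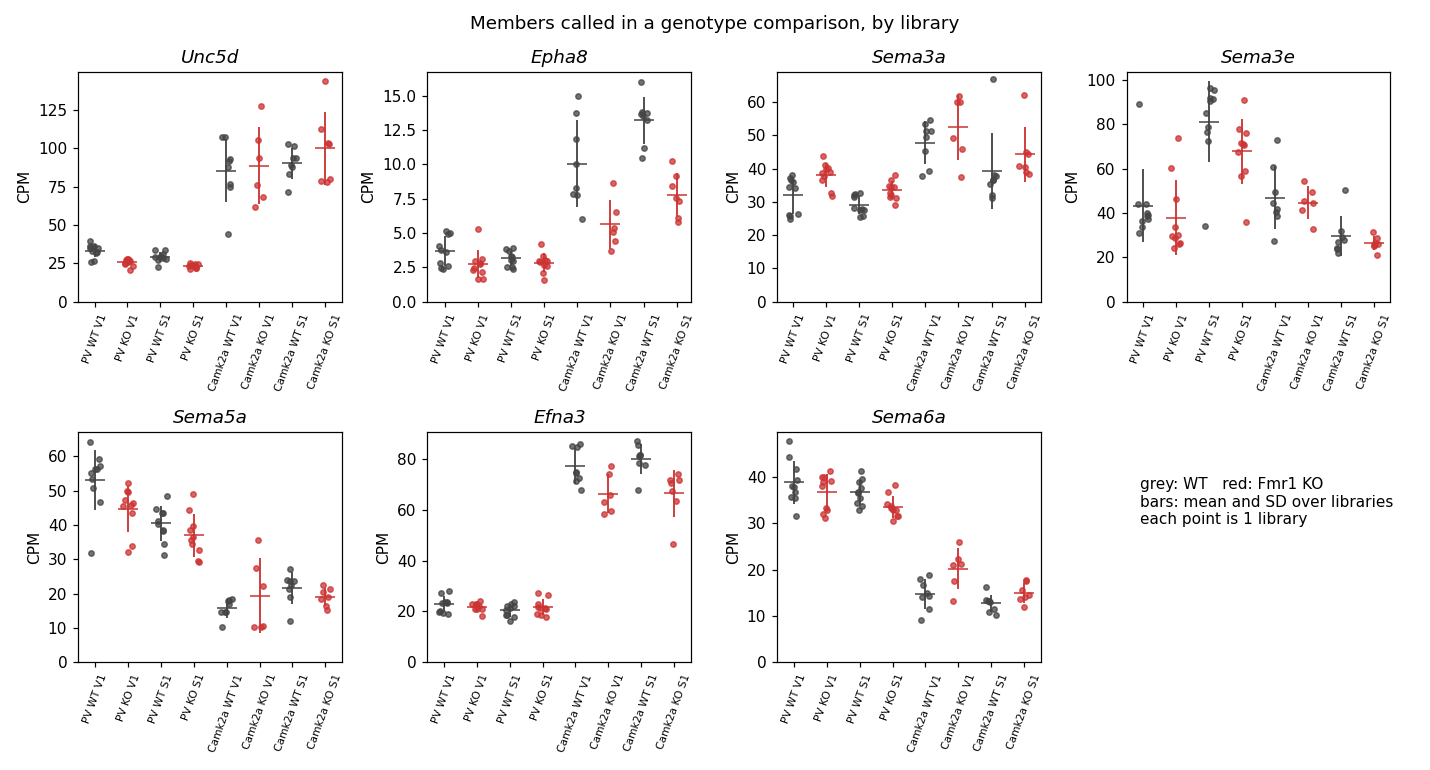
CPM of the 7 members called in a genotype comparison or in its difference between the classes, 1 point per library, with the mean and SD of each of the 8 groups, WT in grey and Fmr1 KO in red. All 10 KO libraries lie below the WT mean of Unc5d in each PV area, and Epha8 KO libraries lie below all WT libraries in Camk2a S1.

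The genotype effect differed between the classes for 1 of 65 members, where 0.832% of all genes differed. Sema6a, a transmembrane ligand of A-type plexins, was at 35.1 ± 1.29 CPM in KO and 37.9 ± 3.36 in WT PV animals, and at 17.7 ± 3.14 in KO and 14.2 ± 1.99 in WT Camk2a animals. The PV effect minus the Camk2a effect was -0.45 ± 0.11 (adjusted p = 0.035), although neither effect passed alone (PV -0.14 ± 0.05, adjusted p = 0.194; Camk2a 0.33 ± 0.11, adjusted p = 0.089). Without P9, P22 and P24 the difference was -0.45 (adjusted p = 0.0796).

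The third comparison asked which guidance genes differ between V1 and S1 within a class and genotype. The members called were mostly higher in V1, Sema7a was lower in V1, and Sema3e was lower in V1 in PV but higher in V1 in Camk2a. With all libraries, edgeR's quasi-likelihood test called 28 of 63 members in PV WT (25 higher and 3 lower in V1), where it called 20.6% of all genes (10.7% higher and 9.95% lower). In PV KO it called 12 of 64 (10 higher and 2 lower), where it called 7.56% of all genes (3.47% and 4.09%), and in Camk2a KO 21 of 61 (16 higher and 5 lower), where it called 13.1% (6.42% and 6.65%). In Camk2a WT it called 0 of 62 (0.359% of all genes, 0.256% higher and 0.103% lower), with 23 members at an unadjusted p under 0.05 (22.8% of all genes) and 14 called by DESeq2 (7.63%). Without the animals whose libraries went against the area label it called 35 of 64 members in PV WT (31 higher and 4 lower), where it called 31.6% of all genes (16.2% and 15.4%). It called 28 of 64 in PV KO (25 and 3), where it called 21.6% (10.2% and 11.4%), and 27 of 62 in Camk2a WT (20 and 7), where it called 21.8% (11% and 10.8%). With the animal as replicate block and all libraries the counts, with the share of all genes called in parentheses, were 28 (26.6%) in PV WT, 0 in PV KO (0 genes called), 0 (0.0448%) in Camk2a WT and 27 (20.9%) in Camk2a KO. Without the animals in doubt the blocked counts were 39 (42%) in PV WT, 31 (28.6%) in PV KO and 34 (33.7%) in Camk2a WT. In the blocked fits with no call, 28 of 64 members in PV KO (29.6% of all genes) and 30 of 62 in Camk2a WT (24.9%) had an unadjusted p under 0.05, and DESeq2 without the block called 19 (11.7%) and 14 (7.63%). The animals left out were found from area-dependent genes, so the counts without them rest on animals whose areas stand apart. In that setting, without the block, 7 of 60 members tested in all 4 class and genotype groups were called higher in V1 in all 4 (Efnb1, Efnb3, Epha6, Nrp2, Plxna3, Plxnc1 and Slit3), where 2.24% of all 14747 genes tested in all 4 were. Sema7a alone was called lower in all 4 (1.91% of all genes), and 15 of 60 were called in none (50.7%).

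Sema7a was at 307 ± 26.3 CPM in V1 and 522 ± 39.4 in S1 of PV WT (n = 9 each, without P22), and at 307 ± 39.2 and 506 ± 47.5 CPM in PV KO (n = 8 each, without P9 and P24). In Camk2a WT without C24 it was at 263 ± 19.8 and 411 ± 15.0 CPM (n = 7 each), and in Camk2a KO at 256 ± 30.1 and 439 ± 42.2 CPM (n = 6 and 7). V1 and S1 did not overlap in any of these 4 pairs of groups, but the animals left out were chosen by area-dependent genes. When all libraries were kept, V1 and S1 overlapped in PV WT, PV KO and Camk2a WT. The log2 fold change without the animals in doubt was -0.80 ± 0.05 in PV WT, -0.76 ± 0.08 in PV KO, -0.63 ± 0.05 in Camk2a WT and -0.79 ± 0.09 in Camk2a KO. With all libraries it was -0.63 ± 0.12 in PV WT (adjusted p = 0.00594), -0.51 ± 0.14 in PV KO (adjusted p = 0.0366) and -0.46 ± 0.12 in Camk2a WT, where it did not pass (adjusted p = 0.0591). The PV KO call was lost with the animal as replicate block (adjusted p = 0.0965), and the Camk2a WT difference passed without C24 (adjusted p = 1.13e-06). Animal P22 had 592 CPM under the V1 label and 356.8 under the S1 label.

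Efnb3, a transmembrane ephrin, was at 21.1 ± 6.61 CPM in Camk2a KO V1 (lowest 12.4, median 20.8, highest 31.3) and 4.60 ± 1.41 in Camk2a KO S1 (lowest 2.51, median 4.98, highest 6.53). The areas did not overlap (log2 fold change 2.19 ± 0.23, adjusted p = 3.79e-05). In Camk2a WT without C24 it was at 20.6 ± 11.9 and 5.39 ± 0.930 CPM (1.95 ± 0.34), and C24 had 3.58 CPM under the V1 label and 18.9 under the S1 label. When C24 was kept, Efnb3 was not called in Camk2a WT, nor was any other member. In PV the V1 excess was 0.71 ± 0.11 in WT and 0.62 ± 0.13 in KO without the animals in doubt. Nrp2, the Sema3f receptor, was at 19.8 ± 4.71 CPM in Camk2a KO V1 and 9.25 ± 2.00 in S1, without overlap (1.11 ± 0.15, adjusted p = 1.97e-04). Of 11 plexins and neuropilins, edgeR with all libraries called 7 higher in V1 in PV WT (10.7% of all genes), 2 in PV KO (3.47%), 0 in Camk2a WT (0.256%) and 7 in Camk2a KO (6.42%), and none lower. Without the animals in doubt it called 8 in PV WT (16.2%), 4 in PV KO (10.2%) and 5 in Camk2a WT (11%) higher.

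With all libraries, the called members of at least 1 CPM with the largest V1 excess in PV WT were Sema3d (1.33 ± 0.30), Sema3f (1.03 ± 0.30), Plxnb2 (0.79 ± 0.18), Slit3 (0.74 ± 0.14), Plxna3 (0.72 ± 0.18) and Nrp2 (0.70 ± 0.21). Robo4 and Ephb4, below 1 CPM, were also called (1.21 ± 0.38 and 0.96 ± 0.29), and Plxnb3 was not (0.85 ± 0.33, adjusted p = 0.0719). The Nrp2 call was lost with the animal as replicate block (adjusted p = 0.0615) and was present without P9, P22 and P24 (0.90 ± 0.17, adjusted p = 5.50e-04). Besides Sema3e and Sema7a, Ntn4 was lower in V1 (-0.20 ± 0.06, adjusted p = 0.0282). In the same comparison 8 of 17 excitatory neuron markers, 11 of 18 astrocyte markers, 7 of 16 tested vascular markers, 6 of 15 microglia markers, 5 of 10 oligodendrocyte precursor markers, 2 of 17 oligodendrocyte markers and 6 of 15 other interneuron markers were called higher in V1. Over all genes 10.7% were called higher and 9.95% lower in V1 in this comparison. Of PV interneuron markers 2 of 14 were called higher and 6 lower in V1, of other interneuron markers 2 lower, and of astrocyte, oligodendrocyte and vascular markers 1 each lower. Their summed CPM was 1618 to 2809 in PV WT V1 and 1550 to 1825 in PV WT S1 for excitatory neuron markers, 1020 to 1558 and 1003 to 1221 for astrocyte markers, and 26.55 to 80.59 and 26.5 to 36.58 for vascular markers. It was 37.8 to 71.26 and 41.74 to 55.2 for microglia markers, and 738.3 ± 209.8 and 632.5 ± 108.6 (mean ± SD) for oligodendrocyte markers. In PV KO 3 of 18 astrocyte, 3 of 17 oligodendrocyte, 3 of 15 microglia and 2 of 16 vascular markers were called higher in V1 (3.47% of all genes). Summed oligodendrocyte markers were there at 692.8 to 1006 CPM in V1 and 508.4 to 820.9 in S1. In Camk2a WT 5 of 18 astrocyte, 5 of 14 tested microglia and 2 of 12 tested vascular markers had a positive log2 fold change. Their part in the area differences of the members was not tested.

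Sema3e differed between the areas in opposite directions in the PV and Camk2a classes. Without the animals in doubt it was at 38.2 ± 4.30 CPM in PV WT V1 (lowest 31.1, median 38.7, highest 44.0) and 86.5 ± 8.66 in PV WT S1 (lowest 72.4, median 90.6, highest 96.3), and at 30.6 ± 7.00 and 73.1 ± 9.18 CPM in PV KO. In Camk2a WT it was at 49.8 ± 12.6 CPM in V1 (lowest 38.6, median 44.5, highest 72.7) and 26.6 ± 3.46 in S1 (lowest 22.1, median 27.1, highest 32.0), and in Camk2a KO at 44.6 ± 7.41 and 26.4 ± 3.18 CPM. V1 and S1 did not overlap in any of these 4 pairs of groups, but the animals left out were chosen by area-dependent genes. When all libraries were kept, V1 and S1 overlapped in PV WT, PV KO and Camk2a WT. Without the animals in doubt, 9 of 9 PV WT and 7 of 7 PV KO animals with both areas had more Sema3e in S1. In the same setting 6 of 6 Camk2a WT and 6 of 6 Camk2a KO animals had more in V1. With all animals these were 9 of 10, 7 of 9, 6 of 7 and 6 of 6. The log2 fold change of V1 over S1 with all libraries was -0.94 ± 0.20 in PV WT (adjusted p = 0.00694), -0.87 ± 0.22 in PV KO (adjusted p = 0.0341), 0.69 ± 0.20 in Camk2a WT (adjusted p = 0.0752) and 0.75 ± 0.11 in Camk2a KO (adjusted p = 3.35e-04). The PV KO call was lost with the animal as replicate block (adjusted p = 0.0945), and the Camk2a WT difference passed without C24 (adjusted p = 6.40e-04). In the class comparison Sema3e was higher in PV in WT S1 (1.45 ± 0.20, adjusted p = 3.20e-06) and was not called in WT V1 (-0.26 ± 0.22, adjusted p = 0.279), where it was called lower without P9, P22 and P24 (-0.39, adjusted p = 0.0272). Sema3e lies at chr5:14025276-14256689 on the plus strand.

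**Figure D4:**
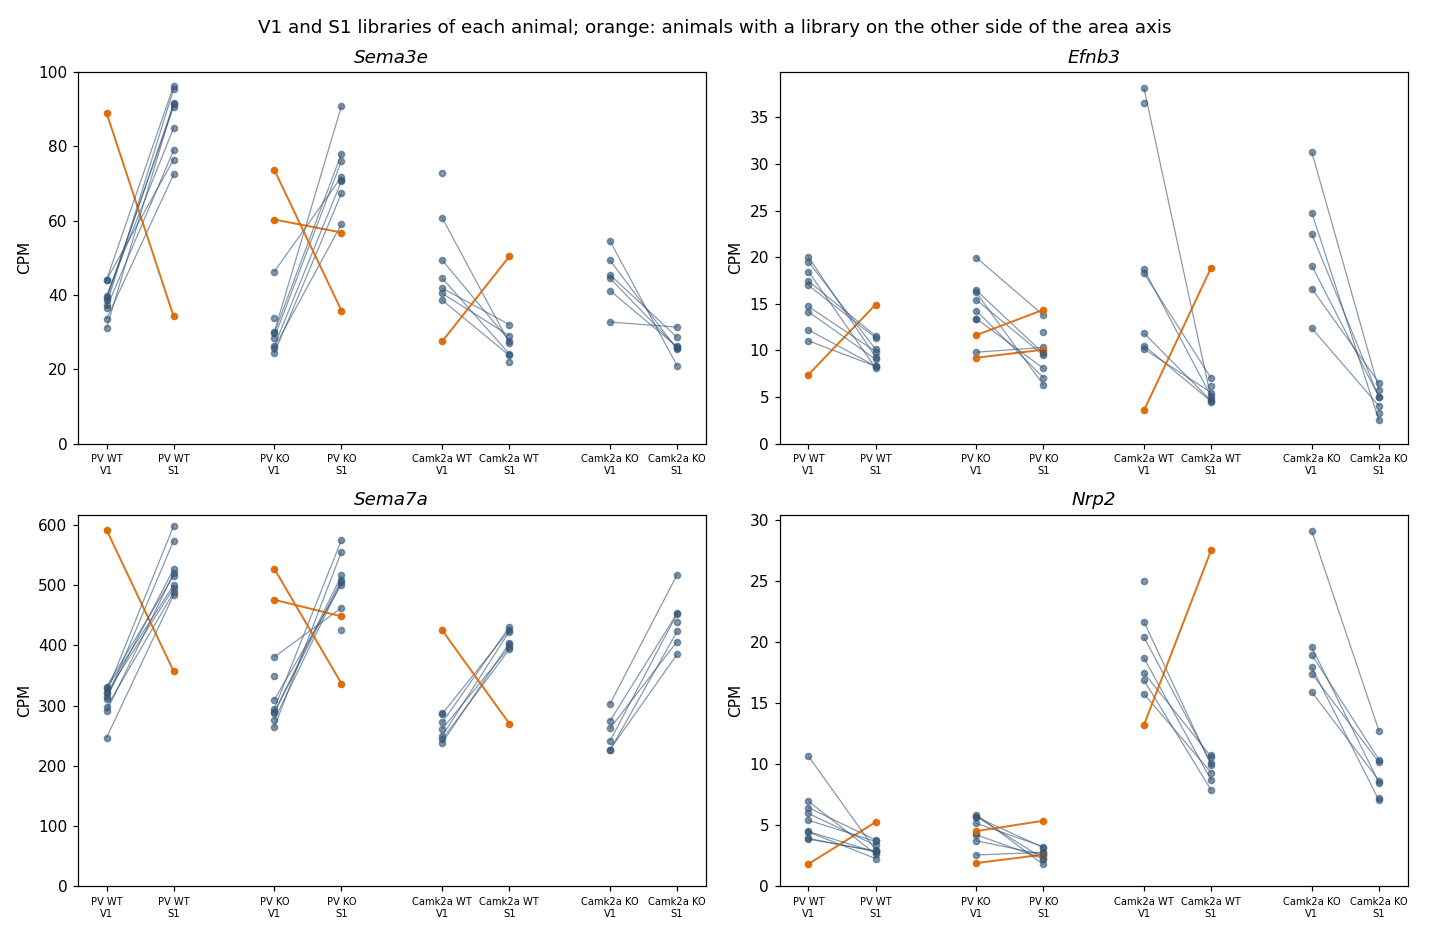
CPM of Sema3e, Efnb3, Sema7a and Nrp2 in V1 and S1, joined by a line where an animal gave both areas, by class and genotype, with animals P9, P22, P24 and C24 in orange. Apart from the orange animals, Sema3e is higher in S1 in 9 of 9 PV WT and 7 of 7 PV KO animals and higher in V1 in 6 of 6 animals of each Camk2a genotype. The orange animals were chosen by area-dependent genes, and with them included V1 and S1 overlap in PV WT, PV KO and Camk2a WT.

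The difference between the classes in the area effect was tested after these results were seen. With all libraries edgeR's quasi-likelihood test called 3 of 65 members in WT (1.54% of all genes) and 6 of 65 in KO (4.06%), and without the animals in doubt 21 of 65 in WT (9.42%) and 6 of 65 in KO (4.47%). For Sema3e the PV effect minus the Camk2a effect was -1.62 ± 0.29 in WT (adjusted p = 0.00612) and -1.62 ± 0.29 in KO (adjusted p = 7.84e-04), and -2.15 ± 0.16 and -2.04 ± 0.18 without those animals. Efna5, a repellent ephrin known from topographic maps, was higher in V1 in PV and lower in V1 in Camk2a: without the animals in doubt it was at 30.4 ± 2.43 and 23.0 ± 2.77 CPM in V1 and S1 of PV WT, and at 56.6 ± 4.24 and 69.8 ± 6.73 in Camk2a WT. Its difference between classes was 0.92 ± 0.13 in KO (adjusted p = 1.78e-05) and 0.47 ± 0.13 in WT, which did not pass with all libraries (adjusted p = 0.0547) and passed without those animals (1.08e-04), in DESeq2 (0.0261) and in limma-voom with the replicate block (0.0129). Sema5a had the same order in WT. Without the animals in doubt it was at 55.5 ± 5.02 and 39.5 ± 4.43 CPM in V1 and S1 of PV, and at 15.4 ± 2.79 and 23.0 ± 2.54 in Camk2a. Its difference between classes with all libraries was 0.81 ± 0.17 (adjusted p = 0.0122), a call lost without C3, C18 and C19 (adjusted p = 0.0612). In KO the Sema5a difference was not called (adjusted p = 0.748), and 3 of 6 Camk2a animals had more of it in V1. Efnb3 differed in KO, its V1 excess being larger in Camk2a (-1.75 ± 0.25, adjusted p = 3.81e-05).

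Guidance genes outside these families are given as counts. Of 28 tested other cues and co-receptors, 6 were higher and 22 lower in PV in WT V1 (median log2 fold change -0.75), and of 51 intracellular signalling genes 25 were higher and 19 lower (median 0.12), where 39.8% of all genes were higher and 37.5% lower. In the genotype comparison with areas summed, the test called 1 of 29 other cues in PV (lower in KO) and 2 of 28 in Camk2a (1 in each direction), and 1 and 3 of 51 signalling genes, where 1.36% of all genes were called in PV and 4.11% in Camk2a. In PV WT it called 11 of 29 other cues higher and 2 lower in V1, and 8 of 51 signalling genes higher and 10 lower, where 10.7% of all genes were higher and 9.95% lower.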

How the data were processed

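Tagged ribosomes were pulled down from V1 or S1 and polyA RNA was sequenced as paired-end reads, per the labels' protocols. The authors deposited 1 table of estimated counts per gene for the 69 libraries, of which 71.1% of values are not whole, and the values were rounded before testing. The submitters' processing notes name STAR, Salmon, limma and mm10, and the roles and versions of these tools are not given in the sources used here. Every column of the table was matched to a sample through its library name. There is 1 library per animal and area. Each animal counts once in the tests within 1 area and in those with areas summed. The main area tests and the main test of the area effect between classes treat the V1 and S1 libraries of an animal as independent, which they are not. The fits with the animal as replicate block take the pairing into account. The smallest chi-square per degree of freedom between libraries of a group was 4.35, so no library was counted as a duplicate.

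Tests used edgeR 4.0.16 in R 4.3.3: TMM scaling, the default filter on low counts by group, robust quasi-likelihood tests with a sex term, p-values adjusted by Benjamini-Hochberg over every gene tested, and calls at an adjusted p under 0.05. The standard error is the absolute log2 fold change over the square root of F. CPM is scaled by a library's total count. Alternatives used DESeq2 1.42.0, limma 3.58.1 (voom), RLE size factors, no filter, no sex term, sex by Y-linked genes, a glial marker score, and fits without libraries in doubt. Only KO versus WT tests were run on simulated data, without a sex term and with libraries drawn independently. The class and area tests and the tests of differences between effects were not checked this way. V1 and S1 libraries of 1 animal, known from the animal code in the library name, are paired; the correlation of their deviations from the group means ran from -0.085 to 0.473 over 32 animals.

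The members and gene lists were chosen with earlier results of these data known. Named members are the 12 with the largest mean WT class difference in each direction among those called in V1 and S1 (at least 1 CPM), every member called for genotype or for its difference between classes, the 6 largest area differences in each direction in WT, the 5 highest per kb in each class, and members of at least 5 CPM called in neither WT class comparison. Other members were named after their values were seen, among them Slit1, Robo2, Dcc, Efna5 and, for the KO area results, Efnb3 and Nrp2. Promoters come from RefSeq (GRCm38.p6) and gene positions from the GENCODE annotation of mm10.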

Additional observations from a re-analysis of the deposited data

Results flagged for a closer look

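Values standing apart within a group were sought in 13 members (104 tests). These were the members called in these same data for genotype, or for a genotype or area effect that differed between the classes. This choice makes libraries that went against their area label apt to stand apart, so the counts are no separate evidence on them. By Dixon's criterion, which chance passes in about 1 in 20 groups, 17 values stood apart, and 13 of the 17 were in such libraries. In the library of C24 labelled S1 these were Efnb3 at 18.89, Epha5 at 147.9, Sema3a at 66.9, Sema3e at 50.37 and Sema4f at 57.57 CPM, and in the library of C24 labelled V1 Efna5 at 89.26 and Sema4f at 79.72 CPM. In the library of P22 labelled S1 they were Efnb3 at 14.92, Ephb6 at 129.6 and Sema3e at 34.24 CPM, and in that labelled V1 Ephb6 at 92.96 and Sema3e at 89.03 CPM. In the library of P9 labelled V1 Epha8 was at 5.264 CPM. The other 4 were Efna3 at 46.69 and Sema3a at 61.98 CPM in Camk2a KO S1 animal C4, Sema4f at 76.67 CPM in Camk2a KO V1 animal C3 and Sema5a at 10.25 CPM in Camk2a WT V1 animal C1.

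The area effect in PV minus that in Camk2a, on the log2 scale, passed the edgeR test of the difference in WT for Sema3e (-1.62), Sema5a (0.81) and Sema6b (-0.37). In KO it passed for Efna5 (0.92), Efnb3 (-1.75), Epha5 (-0.34), Ephb6 (0.28), Sema3e (-1.62) and Sema4f (0.34). The genotype effect in PV minus that in Camk2a passed for Sema6a (-0.45). Of these, Sema5a and Sema6b in WT lost the call without C3, C18 and C19 (adjusted p = 0.0612 and 0.0772), Ephb6 in KO likewise (0.054), and Epha5 in KO without P9, P22 and P24 (0.0809).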

How the results depend on the processing

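Among the members and comparisons that were checked, which are listed below, no value of a single member changed sign with a call under the alternatives run. The median log2 fold change over the members, which is near 0, did change sign for KO versus WT in Camk2a S1 (-0.053, and 0.002 without C24) and in Camk2a V1 (0.011, and -0.003 with sex by Y-linked genes). Of the counts of called members, 95 alternatives stayed within 1.5 times the count reported and 34 did not. The other counts cover the members named by the rules for class, genotype and area, in the comparisons of those rules. They also cover Sema3e, Sema7a, Efnb3, Nrp2, Efna5 and Sema5a in every area comparison, and Efnb3 and Sema3e in every class comparison. Of these values 816 stayed on the same side of the threshold, 23 lost the call and 31 gained it. Members named after their values were seen, such as Slit1, Robo2 and Dcc, were not checked this way in the class comparisons. Counts that moved follow, with the share of all genes called in parentheses. For KO versus WT in Camk2a V1 (1 member), DESeq2 gave 3 (4.92%), the fit without the sex term 0 (1.82%) and that without C3, C18 and C19 0 (0.0954%). In Camk2a S1 (1 member) DESeq2 gave 4 (8.18%), no sex term 3 (6.31%), sex by Y-linked genes 2 (4.91%), leaving out C3, C18 and C19 2 (1.91%) and leaving out C24 5 (10.5%). With areas summed in PV (4 members), limma-voom with the animal as replicate block gave 2 (2.4%), the glial score 2 (1.94%) and leaving out P9, P22 and P24 2 (0.471%). With areas summed in Camk2a (2 members), DESeq2 gave 6 (9.71%), limma-voom with the replicate block 6 (11.8%), the glial score 1 (3.76%) and leaving out C3, C18 and C19 1 (0.783%). For the genotype effect in PV minus that in Camk2a (1 member), DESeq2 gave 2 (1.53%), sex by Y-linked genes 2 (0.838%), limma-voom with the replicate block 2 (2.31%), leaving out C3, C18 and C19 2 (0.524%), leaving out C24 2 (1.53%) and leaving out P9, P22 and P24 0 (0.422%). For V1 versus S1 in PV KO (12 members), DESeq2 gave 19 (11.7%), the replicate block 0 with no gene called, leaving out P9, P22 and P24 28 (21.6%), and both together 31 (28.6%). In Camk2a WT (0 members), DESeq2 gave 14 (7.63%), no sex term 2 (2.47%), sex by Y-linked genes 1 (1.99%), leaving out C24 27 (21.8%), and the replicate block without C24 34 (33.7%). For the area effect in PV minus that in Camk2a in WT (3 members, 1 higher and 2 lower), DESeq2 gave 10 (3.79%), 8 higher and 2 lower, limma-voom with the replicate block 11 (4.97%), 8 higher and 3 lower, leaving out the animals in doubt 21 (9.42%), 15 higher and 6 lower, and leaving out C3, C18 and C19 1 (0.484%), which was lower. The cause of these changes was not tested. Low counts limit members under about 1 CPM, such as Epha2, Ephb4 and Robo4. The alternatives that left out the animals in doubt in single comparisons and combined this with the replicate block, and the test of the area effect between classes, were added after seeing the data.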
